A study of Mus musculus with 6 samples.

Results

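The Toll-like receptors that sit in endosomes, and the proteins that fold, carry and assist them, were followed at the transcript level in mouse plasmacytoid dendritic cells. The set holds 9 genes chosen by symbol: the receptors Tlr3, Tlr7, Tlr8, Tlr9 and Tlr13, the chaperones Unc93b1 and Cnpy3, and the endolysosomal transporters Slc15a3 and Slc15a4. All 9 were found among the 52550 genes listed, and all 9 were among the 15265 genes tested. The cells came from the spleen of C57BL/6 mice, and R837, the TLR7 ligand imiquimod, was present in every sample over 12 hours of culture. Taurine, an amino sulfonic acid, was added beside it in 3 libraries and left out of the other 3. Each value describes stimulated cells, and unstimulated ones were not analysed here. The labels do not say whether replicates are separate animals or cultures, so p-values measure only the spread between these libraries, which may be technical.

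Endosomal TLRs recognise nucleic acids: TLR3 binds double-stranded RNA, TLR7 and TLR8 bind single-stranded RNA and its breakdown products, TLR9 binds unmethylated CpG DNA and mouse TLR13 binds bacterial ribosomal RNA. They are made in the endoplasmic reticulum, where CNPY3 works with the chaperone gp96 in their folding, and UNC93B1 then escorts them to endosomes, where proteases trim them into signalling form. SLC15A3 and SLC15A4 are proton-coupled histidine and peptide transporters of the endolysosome, and SLC15A4 is needed for TLR7 and TLR9 responses of plasmacytoid dendritic cells. These cells are known for high TLR7 and TLR9 and for a large output of type I interferon.

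The values are normalized counts, that is, reads on a gene divided by 1 size factor per library. Reads on genes lay between 33585080 and 38392654 per library. The plasmacytoid markers fixed for the check were all detected, with a summed level of 263866 to 280623 with R837 and 266794 to 276781 with taurine. Of these 12 markers, Bst2 and Cox6a2 were called higher with taurine and Tcf4, Runx2, Pacsin1 and Klk1 lower, where 6.41% of all tested genes were called by limma. The log2 change was -0.51 for Tcf4 and -0.60 for Runx2, transcription factors of this lineage, and their part in the values below was not tested. The T cell genes Cd3d and Cd3g were listed at 0 in every library, but so were all 37 mitochondrially encoded genes, so a listed 0 does not show that a transcript was absent. Over 15238 genes, deviations from the mean of the 6 libraries had a Spearman correlation with exon length of 0.044 to 0.15 in the R837 libraries and of -0.20 to -0.10 in the taurine libraries. Tested genes within 10% of the exon length of a member had median log2 changes between -0.065 (for the length of Slc15a3) and 0.064 (for that of Cnpy3). The part of this trend in the changes given here was not tested.

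Levels were compared between genes as normalized counts per kb of exon. Unc93b1 stood highest, at 16297 ± 621 with R837 and 18071 ± 449 with taurine (SD, n = 3 in each group here and throughout), above 99.5% of tested genes. Tlr9 followed at 8981 ± 958 and 7649 ± 453 per kb. Slc15a3 (3523 ± 145 and 3958 ± 89.0), Tlr7 (2936 ± 1629.5 and 3455 ± 560.2) and Cnpy3 (2848 ± 49.1 and 3209.7 ± 134.8) came next. The place of Tlr7 among them was not fixed. Slc15a3 exceeded Tlr7 in 4 of the 6 libraries and Tlr7 exceeded Cnpy3 in 3 of 6, so Tlr7 did not differ from either beyond its spread. Slc15a3 stood above Cnpy3 throughout, with a lowest value of 3379 per kb where the highest of Cnpy3 was 3317.

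Slc15a4 had 580.1 ± 35.1 and 559 ± 93.5 per kb, and Tlr13 had 157 ± 14.6 and 125 ± 13.3. Tlr8 (49.2 ± 8.80 and 33.8 ± 4.20) and Tlr3 (20.1 ± 10.8 and 25.1 ± 10.9) stood lowest, with overlapping ranges over the 6 libraries. Of the summed receptor level per kb, Tlr9 took 64.9% to 82.0% and Tlr7 16.2% to 33.4% in a library, while Tlr3, Tlr8 and Tlr13 together took 1.41% to 2.53%. Among the member receptors, the level was thus almost wholly Tlr9 and Tlr7 in all 6 libraries. Tlr12, a TLR gene outside the set that is described below, is not in this sum. It had 1589 ± 61.1 per kb with R837 and 1238 ± 62.8 with taurine.

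**Figure D1:**
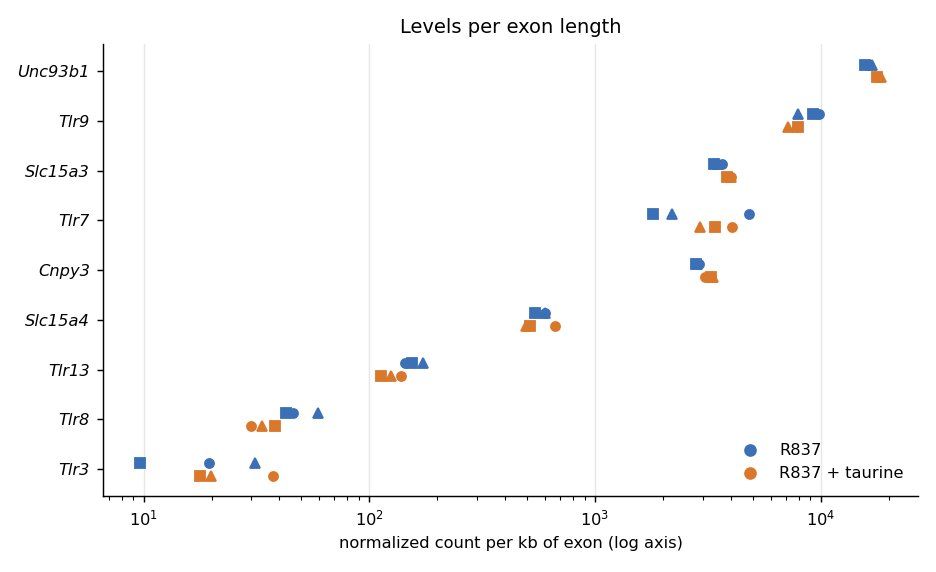
Normalized count per kb of exon (log axis) of each gene, ordered by its mean, in 3 R837 libraries (blue) and 3 R837 plus taurine libraries (orange), with circle, square and triangle for replicates 1, 2 and 3. Unc93b1 and Tlr9 lie above the rest in every library, Tlr7 interleaves with Slc15a3 and Cnpy3, and Tlr8 and Tlr3 are lowest.

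The comparison asked how these transcripts differ when taurine is present during TLR7 stimulation. None of the 9 passed an adjusted p under 0.05 (limma on log2(normalized count + 1), Benjamini-Hochberg over all tested genes), where 6.41% of all tested genes did. edgeR and DESeq2 on the recovered reads also called 0 of the 9, where they called 6.22% and 16.5% of the genes they tested. The unadjusted limma p was under 0.05 for 6 of the 9, against 23.7% of all tested genes, and adjusted p-values ran from 0.123 to 0.793. The groups did not overlap for 5 of the 9, against 29.6% of tested genes. These were 3 escorts or transporters on the higher side and 2 receptors on the lower side. With so few members the counts describe this set only. The median log2 change was -0.23 over the 5 receptors and 0.16 over the 4 escorts and transporters, beside -0.011 over all tested genes. Neither class moved as a whole. The receptor median is the value of Tlr9, and Tlr8 and Tlr13 were lower still, but Tlr3 and Tlr7 had 0.39 and 0.36. Slc15a4 had -0.064, while Unc93b1, Cnpy3 and Slc15a3 were above 0.

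**Figure D2:**
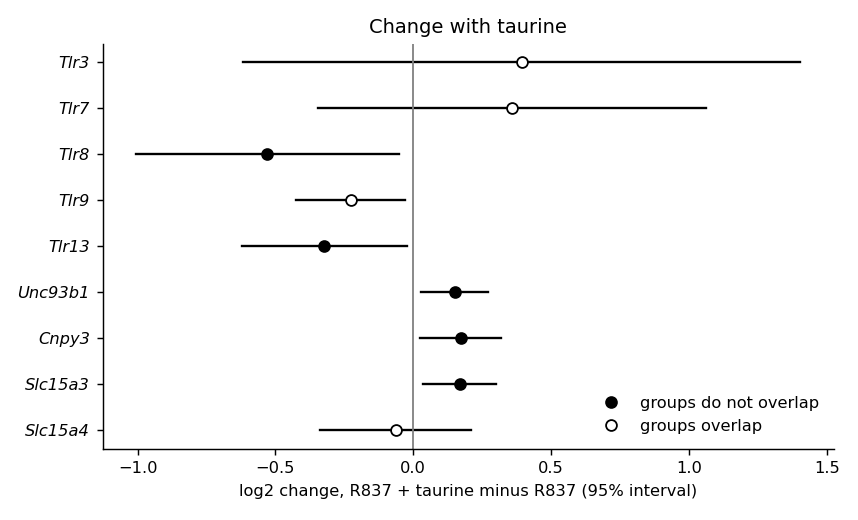
Log2 change, R837 plus taurine minus R837, of each gene with its 95% interval from the moderated fit, not adjusted for the number of genes. Filled points mark genes whose groups do not overlap (Tlr8, Tlr13, Unc93b1, Cnpy3 and Slc15a3), and open points mark overlapping groups. The intervals of Tlr3 and Tlr7 are the widest and include 0.

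Tlr7, the receptor that R837 engages (ENSMUSG00000044583.13, mm10 chromosome X, 167304929 to 167330558, minus strand), varied most among the abundant members. Its normalized counts, in the order of replicates 1, 2 and 3 as for each gene here, were 19615, 7398 and 8947 with R837 and 16481, 13909 and 11919 with taurine. The R837 group held both the highest and the lowest library, and the 3 taurine libraries lay between them. The log2 change was 0.36 ± 0.31 (SE), with a 95% interval of -0.35 to 1.06 and an adjusted p of 0.532. The data therefore allow a fold between 0.787 and 2.09.

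The change of Tlr7 depended on single R837 libraries. Without R837 replicate 1 it was 0.78 with an adjusted p of 0.0436, and without R837 replicate 2 it was 0.078 with an adjusted p of 0.919. These were also the lowest and highest adjusted p among its alternatives. Without R837 replicate 3 the change was 0.21 (adjusted p = 0.743), and by DESeq2 it was 0.23 (adjusted p = 0.779). The highest library was 2.65 times the lowest within the R837 group and 1.38 times within the taurine group. The within-group SD of Tlr7 was 0.55 log2 units, whereas the median was 0.089 among the 999 tested genes within 2-fold of its level. Of those, 8 (0.801%) had a larger SD.

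**Figure D3:**
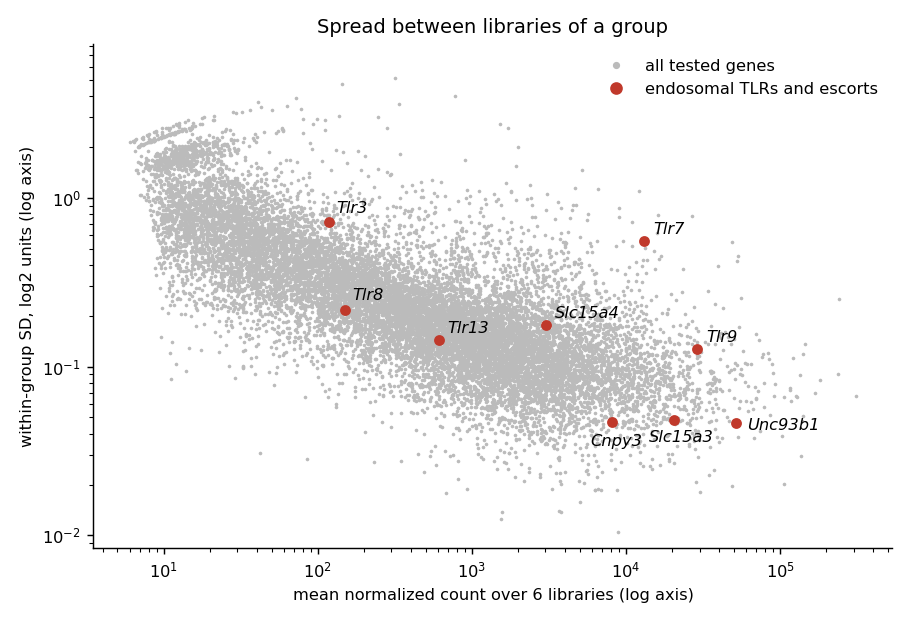
Within-group SD of log2 values (log axis) against the mean normalized count over 6 libraries (log axis) for all 15265 tested genes (grey) and the 9 members (red). Tlr7, at an SD of 0.55, lies far above genes of like level, whereas Unc93b1, Cnpy3 and Slc15a3 lie near the lower edge, at 0.046 to 0.048.

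The genes beside Tlr7 on the X chromosome did not share its pattern. Tlr8, the nearest tested gene on the side of lower coordinates and 40600 bases away, had its highest value in R837 replicate 3. Prps2, an enzyme gene of nucleotide synthesis on the other side, had 1280.3, 1192 and 1037 with R837 and 1129, 1219 and 818 with taurine. Beyond Tlr8 lay Tmsb4x, the gene of the actin-binding peptide thymosin beta 4, with 77844, 79827 and 84568 with R837 and 89590.3, 92814 and 106625 with taurine. Neither was highest in R837 replicate 1 and lowest in R837 replicate 2 as Tlr7 was, since Prps2 was lowest in taurine replicate 3 and Tmsb4x was lowest in R837 replicate 1.

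Since Tlr7 is X-linked, Xist and the Y-linked Ddx3y, Eif2s3y, Kdm5d and Uty were looked up after its values were seen. Xist, the RNA of the inactive X chromosome, had 21 reads or fewer in any library. Ddx3y ran from 3369 to 4491 with R837 and from 2306 to 3277 with taurine (log2 change -0.54, adjusted p = 0.0640 by limma). Kdm5d was called lower with taurine (-0.48, adjusted p = 0.0428), and Eif2s3y (-0.039) and Uty (-0.29) were not called. All 6 libraries were alike in having Y-linked and next to no Xist transcripts.

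Over the 6 libraries, the 5 genes most like Tlr7 by Pearson's r of log2 values, among 9601 named genes with a mean of at least 100, were Rubcnl (0.997), Dcp1a (0.996), Trim62 (0.984), Phf13 (0.975) and Fpr2 (0.975). Dcp1a, a cofactor of mRNA decapping, had 4275, 2859.9 and 2998 with R837 and 3866, 3665 and 3395 with taurine. Rubcnl, a regulator of autophagy, spanned only 1.22-fold between libraries and Dcp1a 1.49-fold, where Tlr7 spanned 2.65-fold. Exons of Fpr2 overlap Fpr3, so its reads are uncertain. These r values are a description over 6 points that share library and group, with no test.

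**Figure D4:**
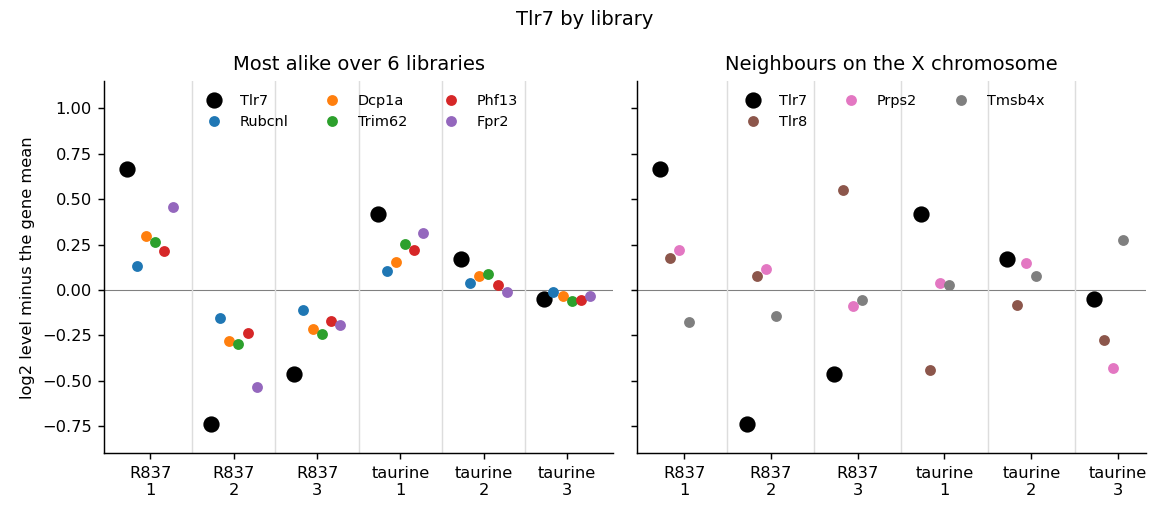
Log2 level minus the gene's mean over the 6 libraries, for Tlr7 (large black points) beside the 5 genes most like it (left) and its X-chromosome neighbours (right), with 1 column of points per library. Tlr7 is high in R837 replicate 1 and low in R837 replicates 2 and 3. The like genes follow it with smaller amplitude, and Tlr8, Prps2 and Tmsb4x do not.

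Tlr9, the CpG DNA receptor (ENSMUSG00000045322.10, chromosome 9, 106222598 to 106226883, plus strand), was the most abundant receptor. Its values were 34119, 31999 and 27589 with R837 and 27333, 27684 and 24794 with taurine. R837 replicates 1 and 2 stood above every taurine library, while R837 replicate 3 fell inside the taurine range. The log2 change was -0.23 ± 0.086 (SE), with a 95% interval of -0.42 to -0.032 and an adjusted p of 0.152. Without R837 replicate 3 the log2 change was -0.31 with an adjusted p of 0.0284, and under quantile normalization it was -0.33 with an adjusted p of 0.0464. No other alternative brought it past the threshold, and the adjusted p ran up to 0.353. The ratio of Tlr9 to Tlr7 per kb was 2.04, 5.08 and 3.62 with R837 and 1.95, 2.34 and 2.44 with taurine. It ranged more widely with R837 than with taurine.

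Tlr13 (ENSMUSG00000033777.3, chromosome X, 106143204 to 106160493, plus strand) had 617, 663 and 741 with R837 and 597, 483 and 538 with taurine. The 3 taurine libraries lay below the 3 R837 libraries, though the nearest pair, 617 and 597, differed little. For Tlr13 the log2 change was -0.32 ± 0.13 (SE), with a 95% interval of -0.62 to -0.024 and an adjusted p of 0.180.

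Tlr8 (ENSMUSG00000040522.5, chromosome X, 167242696 to 167264329, minus strand) had 164, 153 and 212 with R837 and 107, 137 and 119.9 with taurine. Its groups did not overlap either. For Tlr8 the log2 change was -0.53 ± 0.21 (SE), with a 95% interval of -1.01 to -0.054 and an adjusted p of 0.168. Groups that do not overlap with the taurine side lower made up 15% of all tested genes.

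Both receptors are also known from other myeloid cells, so markers of those cells were measured beside them. The 7 conventional dendritic cell markers summed to 11841 to 13019 with R837 and 10561 to 11746 with taurine, of which 1, Clec9a, was called lower. Most of this sum came from Sirpa, Zbtb46 and Clec9a, with R837 means of 6472, 2814 and 2555, where Xcr1 had 47.8. Which cells these transcripts came from was not tested. The 9 monocyte and macrophage markers summed to 7352 to 7610.4 and 7321 to 9039.6, of which 1, Fcgr1, was called higher. Of all tested genes, 6.41% were called. The markers of a list did not move together. All taurine libraries stood above all R837 libraries for Batf3 in the first list and for Csf1r, C1qb, Vcam1 and Fcgr1 in the second. They stood below for Clec9a and Clec4a4 in the first and for Adgre1 and Cd14 in the second. Such groups made up 14.6% (higher) and 15% (lower) of all tested genes. No marker of either list was at 0 in all libraries, and their part in the values of Tlr8 and Tlr13 was not tested. In bulk RNA, fewer cells of a type and less RNA per cell cannot be told apart.

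Tlr3, the receptor for double-stranded RNA (ENSMUSG00000031639.12, chromosome 8, 45395665 to 45411080, minus strand), was the scarcest member. Its values of 101, 50.1 and 162 with R837 and 196, 92.3 and 104 with taurine rested on 107, 52 and 156 reads and on 194, 97 and 98 reads. High and low libraries occurred in both groups. The log2 change of 0.39 ± 0.44 (SE), with a 95% interval of -0.62 to 1.40 and an adjusted p of 0.644, turned to -0.052 without R837 replicate 2.

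**Figure D5:**
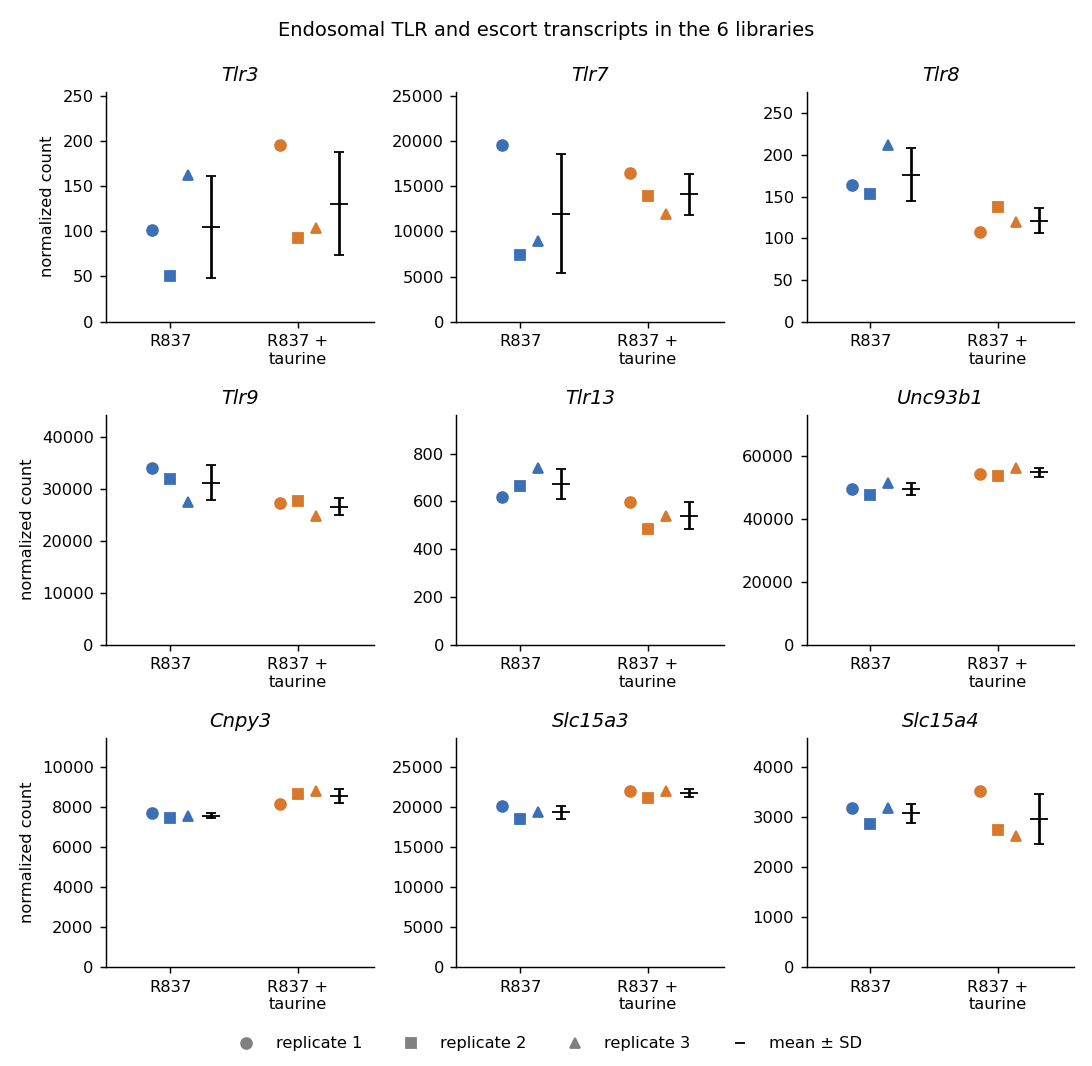
Normalized count of each gene in the 3 R837 libraries (blue) and the 3 R837 plus taurine libraries (orange), with replicate 1, 2 and 3 as circle, square and triangle and the mean ± SD in black beside each group, on axes that start at 0. Unc93b1, Cnpy3 and Slc15a3 show slightly higher taurine groups with little spread, Tlr8 and Tlr13 lower taurine groups, and Tlr7 and Tlr3 wide groups.

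Unc93b1, Cnpy3 and Slc15a3 had the smallest within-group SD of the 9, at 0.046, 0.047 and 0.048 log2 units. Unc93b1, which carries the endosomal TLRs out of the endoplasmic reticulum (ENSMUSG00000036908.16, chromosome 19, 3935186 to 3949340, plus strand), had 49415, 47503 and 51269 with R837 and 54340.3, 53682 and 56298 with taurine. All 3 taurine libraries stood above all 3 R837 libraries, by a small margin. The log2 change was 0.15 ± 0.054 (SE), a fold of 1.11 with a 95% interval of 1.02 to 1.21, and the adjusted p was 0.133. Under quantile normalization the log2 change of Unc93b1 was 0.080 with an adjusted p of 0.368. Relative to the summed receptors per kb, Unc93b1 stood at 1.10, 1.40 and 1.63 with R837 and at 1.48, 1.54 and 1.82 with taurine, groups that overlap.

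Cnpy3, the TLR-specific partner of gp96 (ENSMUSG00000023973.13, chromosome 17, 46735705 to 46752214, minus strand), had 7714, 7457 and 7544 with R837 and 8132, 8652 and 8819.8 with taurine. Its taurine libraries also all stood higher. Cnpy3 had a log2 change of 0.17 ± 0.065 (SE), a fold of 1.13 with a 95% interval of 1.02 to 1.25, and the adjusted p was 0.149.

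Slc15a3 (ENSMUSG00000024737.2, chromosome 19, 10839727 to 10859362, plus strand) had 20147, 18553 and 19339 with R837 and 22036, 21168 and 21989.6 with taurine. Again the groups did not overlap, with a log2 change of 0.17 ± 0.059 (SE), a fold of 1.12 with a 95% interval of 1.02 to 1.23, and an adjusted p of 0.123. Under quantile normalization the log2 change of Slc15a3 was 0.10 with an adjusted p of 0.3198. Groups that do not overlap with the taurine side higher made up 14.6% of all tested genes. Its exons share 1541 bases with Tmem132a on the opposite strand, and the strand setting of the counting is not given, so its reads are uncertain. Tmem132a itself had means of 1673 with R837 and 800.1 with taurine. With the reads of both genes added, the log2 change of Slc15a3 was 0.10 with an adjusted p of 0.323.

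Slc15a4, the transporter needed for TLR7 and TLR9 signalling in these cells (ENSMUSG00000029416.17, chromosome 5, 127595664 to 127632897, minus strand), had 3197, 2867 and 3181 with R837 and 3538, 2751 and 2619.7 with taurine. Taurine replicate 1 was the highest of the 6 libraries, and taurine replicates 2 and 3 were the lowest. The log2 change was -0.064 ± 0.12 (SE), with a 95% interval of -0.34 to 0.21 and an adjusted p of 0.793, and it was 0.019 without taurine replicate 3. Its exons share 427 bases with the opposite-strand gene Gm43474, and with the reads of both added the log2 change was -0.13 (adjusted p = 0.485). Slc15a3 exceeded Slc15a4 per kb by 5.88 to 6.26 times with R837 and by 6.03 to 8.12 times with taurine.

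Over the 6 libraries, Pearson's r of log2 values was 0.91 for Unc93b1 with Slc15a3, 0.88 for Unc93b1 with Cnpy3 and 0.86 for Cnpy3 with Slc15a3. It was -0.89 both for Unc93b1 with Tlr9 and for Cnpy3 with Tlr13. The 6 points share library and group, and the 3 positive values hold the difference between groups that do not overlap. The negative values hold a group difference too, since the taurine means of Tlr9 and Tlr13 were lower and those of Unc93b1 and Cnpy3 higher. Within the taurine group Cnpy3 was lowest in replicate 1, where Slc15a3 was highest. The genes most like each were Zdhhc18, Ddx49 and Tbc1d10a for Unc93b1, the class I antigen presentation gene H2-D1, Clic1 and H2-Q4 for Cnpy3, and the heat shock gene Dnajb1, the stress transcription factor Atf3 and the cytokine subunit gene Il27 for Slc15a3. For Tlr9 they were Pea15a, Adam19 and Klhl24, for Tlr8 Kdm6b, Hoxa7 and Dus4l, and for Tlr13 Smyd1, Fnbp1 and Tfdp1. For Tlr3 they were Nudt14, Sept1 and Pafah1b1, and for Slc15a4 Hectd3, Pomt1 and Saysd1. The r of these genes lay between 0.971 (Saysd1 with Slc15a4) and 0.998 (Dnajb1 with Slc15a3). H2-D1 and H2-Q4 belong to a family of near-identical copies, so their reads are uncertain.

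The promoters are shown for 3 members whose start in RefSeq (GRCm38.p6) and in the files was the same base: Tlr9 as the most abundant receptor, Cnpy3 as an escort with a higher taurine group and Tlr8 as a receptor with a lower one. Promoters were matched for 6 of the 9 genes, not for Tlr7, Unc93b1 and Slc15a3. Each line gives the 250 bases before the start, 5′ to 3′ on the gene's strand. They span chr9:106222348-106222597 (plus strand) for Tlr9, chr17:46752215-46752464 (minus strand) for Cnpy3 and chrX:167264330-167264579 (minus strand) for Tlr8. Capitals mark CANNTG, the E-box core, in Tlr9, and CCAAT on either strand (read ATTGG on the other) in Cnpy3 and Tlr8.
Tlr9: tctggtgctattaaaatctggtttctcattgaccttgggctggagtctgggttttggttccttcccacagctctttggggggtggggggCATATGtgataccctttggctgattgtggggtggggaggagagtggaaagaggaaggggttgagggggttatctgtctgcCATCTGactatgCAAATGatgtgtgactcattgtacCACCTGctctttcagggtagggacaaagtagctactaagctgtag
Cnpy3: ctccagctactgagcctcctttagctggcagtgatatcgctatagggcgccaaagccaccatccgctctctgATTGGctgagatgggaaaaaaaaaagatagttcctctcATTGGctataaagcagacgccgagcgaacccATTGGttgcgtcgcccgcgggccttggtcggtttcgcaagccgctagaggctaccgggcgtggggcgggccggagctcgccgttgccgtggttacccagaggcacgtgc
Tlr8: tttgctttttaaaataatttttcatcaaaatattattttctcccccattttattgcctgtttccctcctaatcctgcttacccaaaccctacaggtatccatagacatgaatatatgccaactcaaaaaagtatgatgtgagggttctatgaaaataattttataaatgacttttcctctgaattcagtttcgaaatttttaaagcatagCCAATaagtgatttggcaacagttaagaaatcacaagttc
CANNTG occurred 4 times in the Tlr9 window, 1 time in that of Cnpy3 and not in that of Tlr8. It is its own reverse complement, and 66.2% of the 32851 windows of the same length held it. CCAAT occurred 3 times in the Cnpy3 window, all on the other strand, and 1 time in the Tlr8 window, and 33.8% of all windows held it. The core of the interferon-stimulated response element (GAAA, any 2 bases, GAAA), searched on both strands, was in none of the 6 member windows, where 2.98% of all windows held it. With 6 windows and so low a share, finding none is uninformative. For Tlr3, Tlr13 and Slc15a4 the RefSeq start also lay 700, 71 and 15505 bases from the start in the files. The GC content was 59.6% in the Cnpy3 window, 50.4% in that of Tlr9 and 31.2% in that of Tlr8. A match here describes letters only.

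Other genes of the pathway were described from lists, by counts. Among 7 further TLR genes 0 were called higher and 1 lower, where 3.75% of all tested genes were called higher and 2.66% lower, and the median log2 change was -0.36. That median is the value of Tlr12 itself. Tlr4, Tlr5 and Tlr11 had 64 reads or fewer in any library, and Tlr1 and Tlr2 had log2 changes of -0.028 and 0.071. The one called was Tlr12, which like TLR11 senses protozoan profilin from an endosomal site. It had 5181, 5136 and 4825 with R837 and 3916, 4139 and 3741 with taurine, groups well apart (log2 change -0.36 ± 0.075 (SE), adjusted p = 0.0283). The call of Tlr12 held in 1 of the 6 fits that left out a library (without R837 replicate 3), and the adjusted p was up to 0.113 in the others. Tlr6, a partner of TLR2 at the cell surface, had the next smallest p (log2 change -0.46, adjusted p = 0.228).

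Of 21 genes of TLR folding and traffic, 1 was called higher and 0 lower, with a median log2 change of 0.0096. Over all tested genes, 3.75% were called higher and 2.66% lower. The list holds gp96 (Hsp90b1), the AP-3 coat and the BLOC complexes that route cargo to lysosome-related organelles. The gene called was Hps1, a subunit of a complex that supports the making of such organelles, with 1455, 1264 and 1222 with R837 and 1733, 1803 and 1682 with taurine (log2 change 0.41 ± 0.099 (SE), adjusted p = 0.0464). The call of Hps1 was lost whichever of the 6 libraries was left out, with an adjusted p of up to 0.156. Exons of Hps1 overlap Gm16244 on the other strand. Hps3, another gene of organelle biogenesis, had a log2 change of -0.28 and an adjusted p of 0.103.

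The proteases that trim the receptors gave 0 calls of 6 by limma, where 6.41% of all tested genes were called. Their median log2 change was 0.026. Lgmn, the asparagine endopeptidase, had 38624, 37256 and 37630.4 with R837 and 39037, 42959 and 45741 with taurine (log2 change 0.17, adjusted p = 0.172), and Ctsb, cathepsin B, had a log2 change of 0.11 (adjusted p = 0.305). Under quantile normalization these were 0.098 for Lgmn and 0.0097 for Ctsb, and without taurine replicate 3 Ctsb had 0.066.

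Among 5 endolysosomal nucleases that cut RNA or DNA ligands, limma called 0, where it called 6.41% of all tested genes. The taurine libraries stood above all R837 libraries for 4 of the 5, against 14.6% of all tested genes. These 4 include Rnaset2a and Rnaset2b, and the median log2 change of 0.24 is that of Rnaset2b. By the same measure 3 of the 6 proteases were higher and 0 lower, where 15% of all tested genes were lower. Of the 21 traffic genes 2 were higher and 2 lower, of the 11 signalling genes below 2 and 4, and of the 7 further TLR genes 0 and 1. Rnaset2a, an RNase that frees the RNA fragments TLR7 and TLR8 bind, had 6029, 6064 and 6000.0 with R837 and 6864, 7223 and 7532 with taurine (log2 change 0.26 ± 0.067 (SE), adjusted p = 0.0580). Its copy Rnaset2b had a log2 change of 0.24 and an adjusted p of 0.0927, and the 2 are near-identical, so how their reads divide is uncertain. By DESeq2 both were called (adjusted p = 0.0159 for Rnaset2a and 0.0455 for Rnaset2b), where DESeq2 called 16.5% of the genes it tested. Limma called Rnaset2a (adjusted p = 0.0459) when only genes with a mean of at least 50 were tested, and it then called 9.87% of them.

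Of 11 signalling genes below these receptors, 2 were called higher and 1 lower, with a median log2 change of -0.0052. Over all tested genes, 3.75% were called higher and 2.66% lower. The genes called were the adaptor Myd88 (log2 change 0.46, adjusted p = 0.0281), the transcription factor Irf7 (0.65, adjusted p = 0.00296) and the kinase Irak1 (-0.38, adjusted p = 0.0205). Exons of Myd88 and Irf7 overlap Acaa1a and Phrf1. Irf7 was called whichever library was left out. Myd88 was called in 2 of these 6 fits (without R837 replicate 3 and without taurine replicate 2) and Irak1 in 1 (without R837 replicate 3), with adjusted p-values of up to 0.102 and 0.0925 in the others. The gene 5430427O19Rik encodes TASL, the adaptor that SLC15A4 recruits, and was named for that link outside the naming rule. It had 1276, 1129 and 1447 with R837 and 1304, 1573 and 1005 with taurine, in overlapping groups like those of Slc15a4 (log2 change -0.0052, adjusted p = 0.991). Its sign depended on the setting.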

How the data were processed

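For each library the authors deposited a table of genes whose signal is headed as normalized counts. Dividing by the smallest step of a library gave whole reads for 100% of values (within 0.001 of a read) in all 6. The builds mm10 and mm8 and the tools HISAT2 and StringTie stand in the submitters' processing notes, their roles and versions not given. How reads were counted and normalized, and with which strand setting, is not given in the sources used here. Exon lengths and overlaps came from GENCODE M21. Of 52403 shared gene identifiers, 95.2% had the same coordinates there, so coordinates are taken as mm10. The test covered genes reaching 10 normalized counts in 3 or more libraries, with limma 3.58.1 in R 4.3.3 on log2(normalized count + 1), a pseudocount that draws low values together, with 1 group term, an abundance trend in the prior variance and Benjamini-Hochberg adjustment, two-sided, and genes with an adjusted p under 0.05 were called. The procedure was tested on simulated data. Alternatives included edgeR 4.0.16 and DESeq2 1.42.0 on the recovered reads, and edgeR called 950 genes where limma called 979. Adding the reads of overlapping genes was chosen after seeing the data. Libraries of a group differed by more than sampling noise. The members, lists and rules were chosen with earlier results of these data known. Named beside the members are, for each list, the called genes (up to 6) or, where fewer than 2 were called, the 2 with the smallest p, the genes most like each member (5 for Tlr7, 3 for others) and the tested neighbours of Tlr7 and Tlr8. The 7 marker lists were plasmacytoid and conventional dendritic cells, monocytes and macrophages, B cells, T cells, neutrophils and erythroid cells.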

Additional observations from a re-analysis of the deposited data

How the results depend on the processing

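The number of genes called among all tested was 979, and it was 547 without a filter on low values, 4 by limma without the abundance trend, 615 with a replicate block, 1842 by DESeq2 and between 134 (without R837 replicate 2) and 1477 (without R837 replicate 3) with 1 library left out, each of the 6 moving it by over 1.5 times. The causes were not tested. Rescaling without the 50 most abundant genes gave 465 higher and 588 lower, where 573 and 406 stood before. The number of members called was 0, but 1 (Tlr9) under quantile normalization and between 0 and 1 with 1 library left out (Tlr7 without R837 replicate 1, Tlr9 without R837 replicate 3). Only 2 members changed sign: Tlr3 ran from -0.052 (without R837 replicate 2) to 0.79 (without R837 replicate 3), and Slc15a4 from -0.20 (without taurine replicate 1) to 0.019 (without taurine replicate 3) with 1 library left out. The other 7 kept their direction in every alternative run. The list gene 5430427O19Rik had 0.020 under quantile normalization, 0.018 by edgeR, 0.012 by DESeq2 and -0.16 (without taurine replicate 2) to 0.16 (without taurine replicate 3) with 1 library left out. No other named list gene changed sign, and without the abundance trend none was called. Same-numbered libraries did not deviate together (correlations -0.0026, -0.0068 and -0.043 for numbers 1, 2 and 3), and none correlated best with its own number, so the numbers are not taken as pairs. With the replicate block 0 members were called, and Hps1, Myd88 and Irak1 had adjusted p-values of 0.0758, 0.0511 and 0.0508. Depth limits Tlr3, with 52 to 194 reads per library.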

Other observations

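Neutrophil, B cell and erythroid markers were also measured. The 7 neutrophil markers summed to 1033 to 1482 with R837 and 1533 to 1901 with taurine, the 7 B cell markers to 1561 to 2676 and 1708 to 2461, and the 6 erythroid markers to 85.9 to 126 and 162 to 239. Most of the B cell sum was Pax5 (means 1480 and 1564), whose exons overlap other genes. Fcer2a stood lower in all taurine libraries (log2 change -1.68, adjusted p = 0.0654 by limma), as did 15% of all tested genes. The other tested B cell markers had overlapping groups. The 6 T cell markers summed to 40.4 to 84.9 and 48.5 to 70.1. The neutrophil gene Ngp and the erythroid gene Hba-a1 were called higher, where 3.75% of all tested genes were. The other tested markers of these lists were not called and had overlapping groups. Among the neutrophil genes, Camp went the other way (log2 change -0.57), while S100a8, S100a9, Mpo and Elane had changes above 0. The neutrophil markers thus did not all move together.

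The spread of Tlr7 was not unique among abundant genes, which were looked up after its values were seen. Of 1557 genes with a mean normalized count of at least 5000, 13 had a larger within-group SD than Tlr7, and the median SD was 0.090 log2 units. Plagl2 had 10543, 1745 and 1421 with R837 and 8807, 8793 and 8218 with taurine, so the same 2 R837 libraries were low as for Tlr7. Tor3a, an interferon-inducible gene, had 13086, 5237 and 6849 with R837 and 14183, 8957 and 8670.2 with taurine. Rab43, whose exons share 4164 of 5526 bases with Gm45140 on the same strand so that its reads are uncertain, was low in R837 replicate 3 alone, at 2281 where the other 5 libraries had 12981 to 14795, and Srgap3 was lowest in taurine replicate 3, at 6135, with 10598 to 21221 in the others.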
